A study of Mus musculus with 4 samples.

Results

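Immature TAM-1 is a subset of tumour-associated macrophages (TAMs) named in the authors' deposited annotation, and its cells were taken by that name alone. It held 619 of the 20583 monocytes and macrophages that were annotated together in mouse tumours, of which 518 came from the B16 library, 76 from the LLC CITE-seq library and 25 from the LLC library. B16 is a mouse melanoma line and LLC (Lewis lung carcinoma) a mouse lung tumour line, and both were grown under the skin. Each library was droplet single-cell RNA sequencing of 1 pool of 3 mice, and no treatment is named in the labels. The B16 and CITE-seq libraries were from C57BL/6J mice. The LLC library was from F11r fl/fl LysM-Cre- mice, which carry a floxed F11r gene without the Cre that would delete it in myeloid cells. CITE-seq reads antibody tags together with RNA from the same cells.

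Monocytes that enter a tumour from the blood lose Ly6C and Ccr2 as they mature into macrophages, and gain complement, scavenger receptor and lysosomal genes. MHC class II molecules show peptides to CD4 T cells. Their genes, the H2-A and H2-E chains, the invariant chain Cd74 and the peptide loaders H2-DM, are switched on together by the coactivator Ciita. Interferon-gamma induces Ciita through Irf1, and it also induces Socs1, a brake on the same receptor's signal, guanylate binding proteins (Gbp) and the T cell attracting chemokines Cxcl9 and Cxcl10. Type I interferons act through a related route and induce Ifit, Oas, Mx1 and Rsad2.

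The 4 genes that mark the subset are Ciita (chr16:10480059-10528418, plus strand, GENCODE vM21 on mm10), H2-DMb1 (chr17:34153072-34160230, plus strand), Socs1 (chr16:10782240-10785536, minus strand) and Ly6i (chr15:74979534-74983430, minus strand), a member of the Ly6 family of surface proteins. Ciita and Socs1 are 253821 bases apart on chromosome 16. Ciita does not bind DNA. It is held at class II promoters by factors on the X and Y boxes. Promoters of some class II genes that were high in the subset and held matches to these boxes are shown here, with that of Socs1. The sequences are RefSeq's, on GRCm38.p6, and run from 120 bases before the gene start to the base before it, except for H2-DMb1, of which 28 bases are shown. Capitals mark the X box letters GATGATGC or the cAMP element TGACGTCA, the Y box (CCAAT or its complement ATTGG), and in Socs1 a pair of overlapping interferon-stimulated response cores.
H2-Eb1, chr17:34305747-34305866, plus strand: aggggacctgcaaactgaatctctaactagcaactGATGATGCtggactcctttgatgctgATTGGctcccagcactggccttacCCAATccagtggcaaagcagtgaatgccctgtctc
H2-Aa, chr17:34287824-34287943, minus strand: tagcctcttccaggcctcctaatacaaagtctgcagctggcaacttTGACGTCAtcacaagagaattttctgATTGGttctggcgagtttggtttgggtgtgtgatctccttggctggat
H2-DMb1, chr17:34153089-34153116, plus strand: tttacctagtaactGATGATGCtaggct
Socs1, chr16:10785537-10785656, minus strand: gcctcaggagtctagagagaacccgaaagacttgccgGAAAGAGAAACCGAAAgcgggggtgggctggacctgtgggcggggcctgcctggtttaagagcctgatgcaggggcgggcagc

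Positions are counted from the gene start in RefSeq's table, which for H2-DMb1 (34153191) lies inside the GENCODE gene. The X box letters began at -88 from that start in H2-DMb1 and at -85 in H2-Eb1, and the cAMP element began at -74 in H2-Aa. Within 250 bases before the start, on both strands, GATGATGC was in 0.575% of 32851 promoters, TGACGTCA in 1.55%, CCAAT in 33.8% and the interferon-stimulated response core in 2.98%. Either X-type match followed by ATTGG within 10 to 30 bases was in 26 promoters (0.0791%). Of the 16 genes in the class II list, 12 had a promoter in the table, and 4 of these held the pair, namely H2-DMb1, H2-DMb2, H2-Eb1 and H2-Aa. H2-DMa, which was also high in the subset in each library, had 2 promoters, and neither held an X-type match. A match is a string of letters and was not tested as a binding site. Promoters of Ciita and Ly6i are not shown.

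The subset was common in B16 and rare in LLC. It made up 22.6% (95% exact interval 20.9 to 24.3) of the 2297 B16 monocytes and macrophages, 0.750% (0.591 to 0.938) of the 10131 CITE-seq cells and 0.307% (0.198 to 0.452) of the 8155 LLC cells. The B16 share was 30.1 times (23.6 to 38.8) that of the CITE-seq library and 73.6 times (49.3 to 115) that of the LLC library. The LLC libraries themselves differed by 2.45 times (1.54 to 4.01). Of all 6870 cells in the B16 library the subset was 7.54%, and of all 13021 in the LLC library 0.192%. Intervals are Clopper-Pearson for shares, exact Poisson for levels and exact conditional binomial for ratios, and they hold only the error of counting. Since each tumour model had 1 or 2 libraries, tumour, mice and library preparation cannot be told apart, and no difference has a replicate check.

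Depth was close to that of the pooled other subsets. The cells of the subset had medians of 9361 UMIs (unique molecular identifiers, counted RNA molecules) in B16, 4826.5 in the CITE-seq library and 6711 in LLC, against 9127, 4545 and 6530 in all other subsets of the same libraries. Single subsets differed more, with medians of 13894 in TAM-1 and 6386 in Monocytes of B16. In the CITE-seq library Mono/TAM Hypoxic had 2945 and Immature TAM-3 had 7563.5. In Immature TAM-1, the median share of mitochondrial UMIs was 2.68%, 3.39% and 3.21%. By doublet score, 3 of its 518 B16 cells and 0 of its 25 LLC cells were in the top 6% of their library. Libraries shared 5 to 18 cell barcodes pairwise, and 1 cell of the subset carried one of them.

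All 4 markers had higher levels in the subset than in the pooled other subsets of each library. Levels are CPM, the gene's summed UMIs per 1000000 UMIs of the group. Ciita stood at 128 CPM (118 to 138) in B16, 176 (137 to 223) in the CITE-seq library and 89.2 (51.9 to 143) in LLC, against 41.0, 32.3 and 16.1 CPM in the other subsets. These are ratios of 3.12 (2.82 to 3.47), 5.46 (4.24 to 6.93) and 5.52 (3.20 to 8.89). H2-DMb1, a chain of the peptide loader, stood at 886, 625 and 519 CPM, with ratios of 2.17, 2.93 and 3.64. Socs1 stood at 103, 174 and 126 CPM, with ratios of 2.32, 16 and 12.9. Ly6i stood at 101, 106 and 121 CPM, with ratios of 3.53, 5.75 and 14.1. Ciita in LLC, and Socs1 and Ly6i in both LLC libraries, had too few UMIs for the count minimum given below. The marker levels of the subset thus lay within 2-fold of one another across libraries, while the other subsets were lower in the LLC libraries. The sources used here do not give how the cells were clustered, and their RNA may have named them, so these ratios describe the subset and test nothing. Reads of H2-DMb1 and its near-identical neighbour H2-DMb2, and of Ly6i and other Ly6 genes, could have been split or dropped in the authors' counting.

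**Figure D1:**
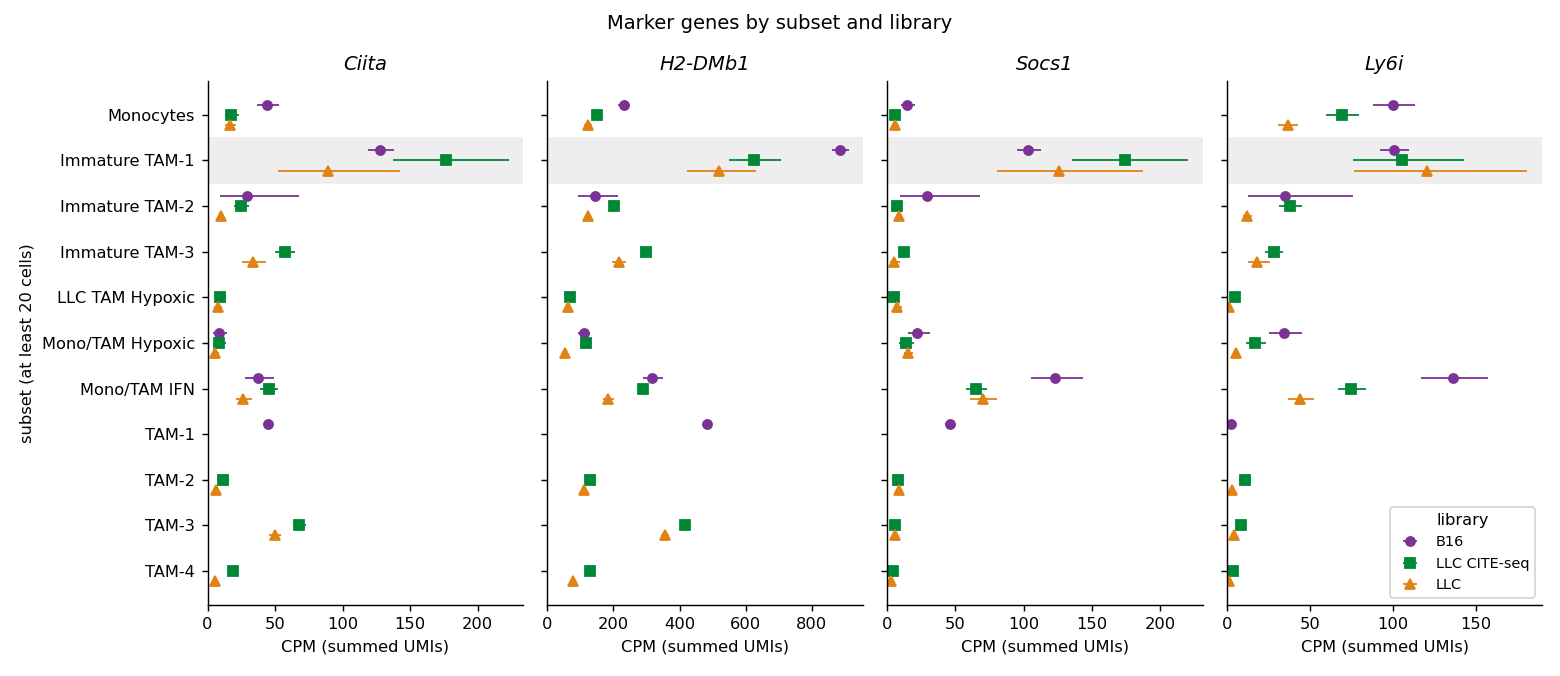
CPM of Ciita, H2-DMb1, Socs1 and Ly6i (horizontal axes) in each subset of at least 20 cells (vertical axis), with 1 symbol per library and 95% Poisson bars; the grey band is Immature TAM-1. Of the subsets drawn, Ciita and H2-DMb1 are highest in Immature TAM-1 in every library. In B16 Ly6i is higher in Mono/TAM IFN and level in Monocytes, and the Socs1 bars of Mono/TAM IFN and Immature TAM-1 overlap.

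Ciita and H2-DMb1 ranked highest in Immature TAM-1 among the subsets of at least 20 cells, 6 in B16 and 10 in each LLC library. The next subset was TAM-1 in B16 (44.5 CPM of Ciita) and TAM-3 in the CITE-seq (67.7) and LLC (49.9) libraries. For Ciita in LLC, the interval of Immature TAM-1 overlapped that of TAM-3. The 17 TAM-3 cells of B16, too few to be ranked, had 65.2 CPM of Ciita (31.3 to 120) and 978 of H2-DMb1 (828 to 1148). They had 5949 CPM of H2-Aa and 14252 of Cd74, against 5534 and 13436 in Immature TAM-1. Socs1 and Ly6i ranked 2 in B16, behind the interferon subset Mono/TAM IFN at 123 and 136 CPM, and 1 in both LLC libraries. Intervals of those neighbours overlapped for Socs1 in B16 and for Ly6i in the CITE-seq library. B16 Monocytes had 100 CPM of Ly6i (88.2 to 113), level with the 101 (92.4 to 110) of Immature TAM-1.

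Single cells carried the markers unevenly. Ciita was seen in 54.8% of the subset's cells in B16, 43.4% in the CITE-seq library and 36.0% in LLC. After each cell was thinned to 2000 UMIs these shares were 20.9%, 22.4% and 16%, against 6.46%, 5.27% and 2.86% of other monocytes and macrophages, and 0.440% of B16 naive T cells, which should lack Ciita. Thinning left out 5 of the subset's B16 cells and none in the LLC libraries. A UMI of at least 3 of the 4 markers was found in 35.9%, 27.6% and 36.0% of its cells, against 8.99%, 2.09% and 0.910% of other cells. No marker was seen in 24 of the 518, 3 of the 76 and 1 of the 25 cells.

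Across all genes, a gene was measured where at least 10 UMIs were expected in the smaller group at equal levels, and called higher or lower at 1.5-fold, a rule of size with no test. Of 10123 measured genes in B16, 487 (4.81%) were higher and 1500 (14.8%) lower in the subset than in all other subsets. In the CITE-seq library, 313 (6.77%) of 4620 were higher and 640 (13.9%) lower, and in LLC 241 (9.17%) of 2629 and 413 (15.7%). Requiring an interval that leaves out 1 gave 435 higher and 1276 lower in B16, 259 and 374 in the CITE-seq library, and 201 and 236 in LLC. Of 2628 genes measured in all 3 libraries, 34 were higher and 63 lower in every one. The 34 were 27.2%, 28.8% and 14.2% of the higher calls among these genes in B16, the CITE-seq library and LLC, and the 63 were 44.1%, 22.3% and 15.3% of the lower calls. The references differ, since TAM-1 made up 941 of the 1779 other B16 cells but 4 and 2 cells of the LLC libraries, which held TAM-2, TAM-3 and TAM-4 instead.

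Most measured class II genes were higher in each of the 3 libraries. In the class II list 9 of 14 measured genes were higher and 0 lower in B16 (median log2 ratio 0.89), 7 of 9 higher and 1 lower in the CITE-seq library (1.56), and 6 of 8 higher and 0 lower in LLC (1.84). The median of all measured genes was -0.06, -0.05 and -0.02. The list's summed level was 33865 CPM against 18523 in B16, 22810 against 8958 in the CITE-seq library and 19130 against 6525 in LLC. H2-Aa, the alpha chain of I-A, stood at 5534, 3358 and 2770 CPM in the subset, with ratios of 1.95 (1.93 to 1.98), 3.06 (2.89 to 3.23) and 4.0 (3.66 to 4.36). Cd74, the invariant chain that guards the peptide groove, stood at 13436, 9402 and 7863 CPM, with ratios of 1.92, 2.89 and 3.56. H2-Ab1, H2-Eb1 and H2-DMa were likewise higher, at 1.77 to 2.07 times in B16, 2.95 to 3.30 in the CITE-seq library and 3.37 to 4.30 in LLC. Reads of H2-Eb1 may include its overlapping antisense gene Gm20513.

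Further members of the list act beside the class II chains. Rfxap, a subunit of the RFX factor that holds Ciita at the X box, had ratios of 1.13 (0.95 to 1.34), 0.47 (0.21 to 0.89) and 0.99 (0.48 to 1.83). Rfx5 and Rfxank, the other RFX subunits, had B16 ratios of 1.19 and 0.87 and too few UMIs to be measured in the LLC libraries. Ctss, the protease that trims the invariant chain, stood at 3067, 1980 and 1983 CPM, with ratios of 1.16, 0.99 and 1.04. H2-Oa and H2-Ob, which restrain the loader, had 17 and 28 UMIs in B16, with ratios of 1.17 (0.64 to 2.05) and 1.79 (1.10 to 2.86), and at most 3 UMIs in an LLC library.

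**Figure D2:**
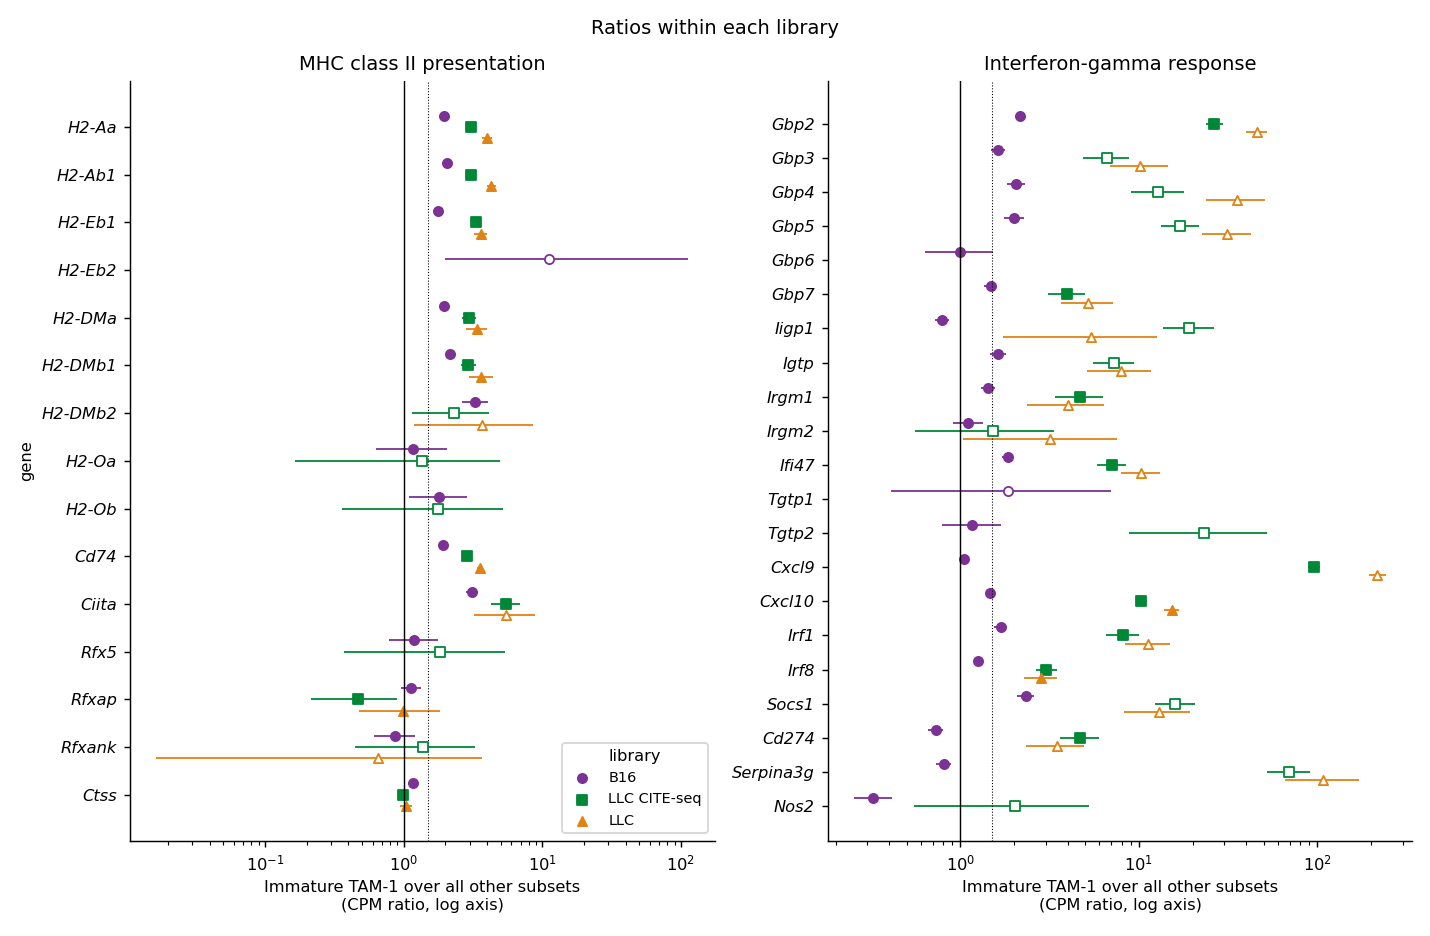
Ratio of Immature TAM-1 over all other subsets of the same library (horizontal, log axis) for genes of the class II (left) and interferon-gamma (right) lists with at least 1 UMI in the subset (1 list gene is not drawn), with 95% bars; open symbols are below the count minimum, the solid line is 1 and the dotted line 1.5-fold. Class II ratios lie between 1.77 and 4.30 for H2-Aa, H2-Ab1, H2-Eb1, H2-DMa and H2-DMb1, while Cxcl9 spans 1.04 in B16 to 217 in LLC.

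Interferon-gamma genes separated the subset most in the LLC libraries. In B16, 8 of 21 measured genes of that list were higher and 1 lower (median log2 0.52). All 10 measured genes of the CITE-seq library (2.52) and all 3 of LLC (2.18) were higher. A member could pass the minimum through its UMIs in the subset, so these counts and medians are descriptions. Many members were below the count minimum there only because the rest of the library held few of their UMIs. Without that minimum the interval lay above 1 for 14, 18 and 18 of the 22 genes in the table, against 13.6%, 5.38% and 5.49% of all genes in B16, the CITE-seq library and LLC. The list's summed level was 4350 CPM against 3341 in B16, 9120 against 818 in the CITE-seq library and 9237 against 678 in LLC.

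Cxcl9, which draws T cells through the receptor Cxcr3, stood at 1048 CPM in the subset in B16 against 1008 in the other subsets, a ratio of 1.04 (1.01 to 1.07). It stood at 2852 against 29.9 CPM in the CITE-seq library and at 2801 against 12.9 in LLC, ratios of 95.3 (88.3 to 103) and 217 (194 to 242). In LLC, Cxcl9 was below the count minimum. The subset held 0.696% of the CITE-seq UMIs of all genes but 40.0% (38.2 to 41.9) of those of Cxcl9, and in LLC 0.308% against 40.1% (37.4 to 42.8). In B16 it held 21.2% of all UMIs and 21.9% of those of Cxcl9. A Cxcl9 UMI was seen in 48.6% of its cells in B16, 71.1% in the CITE-seq library and 60.0% in LLC, against 44.2%, 3.25% and 1.23% of other monocytes and macrophages and 5.52% of B16 naive T cells. These shares are of cells at full depth, without thinning. In LLC, the fullest single cell of the subset held 17.2% of its Cxcl9 UMIs.

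Gbp2, a guanylate binding protein, stood at 530, 1046 and 1390 CPM, with ratios of 2.14, 26.5 and 45.6. Cxcl10 stood at 674, 2285 and 2266 CPM, with ratios of 1.46, 10.3 and 15.2, and 1 LLC cell held 28.5% of its LLC UMIs. Serpina3g, a serine protease inhibitor induced in activated macrophages, stood at 99.7 CPM in B16, below the 124 of the other subsets, but at 199 against 2.88 and 131 against 1.22 in the CITE-seq and LLC libraries. Irf1, the factor that carries the signal to Ciita, had ratios of 1.68, 8.14 and 11.3. Gbp2 and Irf1 in LLC, and Serpina3g in both LLC libraries, were below the count minimum. Cd274, which encodes the T cell inhibitory ligand PD-L1, had a ratio of 0.73 in B16 and of 4.66 and 3.46 in the LLC libraries. Nos2, the inducible nitric oxide synthase, was lower in B16 at 14.3 against 43.8 CPM and had 4 and 0 UMIs in the subset's LLC cells. The receptor genes Ifngr1 and Ifngr2 had ratios between 0.60 and 1.43.

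Type I interferon genes took another course. In B16, 0 of 21 measured genes were higher and 10 lower (median -0.43), in the CITE-seq library 4 of 17 higher and 2 lower (0.26), and in LLC 3 of 5 higher and 0 lower (1.0). Rsad2, an antiviral enzyme also called viperin, stood at 46.8 against 370 CPM in B16 and at 27.7 against 92.5 in the CITE-seq library. Ifit1, Ifit2 and Ifit3 had B16 ratios of 0.28, 0.27 and 0.25, and CITE-seq ratios of 1.32, 0.83 and 0.88. Isg15, a ubiquitin-like protein, had ratios of 0.74, 1.88 and 4.51.

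Class I genes were higher mainly in the LLC libraries. Of the class I list, 2 of 16 measured genes were higher and 1 lower in B16 (median 0.28), 10 of 15 higher in the CITE-seq library (1.08) and 11 of 12 in LLC (1.51), with 0 lower in either. The peptide pump Tap1 had ratios of 1.32, 4.01 and 5.51, and the immunoproteasome subunit Psmb9 of 1.08, 3.26 and 3.43. Among costimulation and CD40 pathway genes, 2 of 16 were higher and 1 lower in B16 (0.32), and 7 of 9 higher and 1 lower in the CITE-seq library (0.90). Both measured LLC genes, Cd86 and Nfkb1, were higher. Cd40, the receptor that CD40 agonists engage, stood at 60.9 against 48.1 CPM in B16 (ratio 1.27, 1.11 to 1.44), 121 against 25.7 in the CITE-seq library (4.70, 3.45 to 6.27) and 94.4 against 20.8 in LLC (4.53, 2.68 to 7.19).

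**Figure D3:**
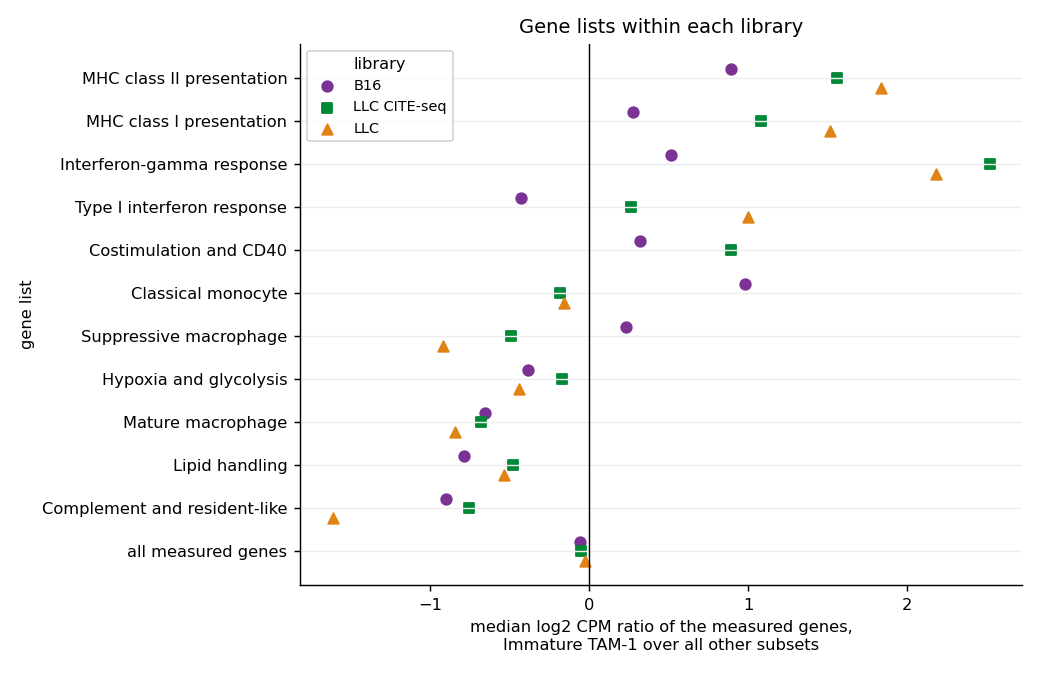
Median log2 ratio of Immature TAM-1 over all other subsets (horizontal axis) for the measured genes of 11 lists and for all measured genes (vertical axis), with 1 symbol per library; lists with fewer than 3 measured genes in a library have no symbol. Class II medians are 0.89, 1.56 and 1.84, the classical monocyte median is 0.98 in B16 and below 0 in both LLC libraries, and the complement medians are below 0 in every library.

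Genes of mature macrophages were lower in the subset than in the pooled other subsets. The complement and resident-like list had 8 of 12 measured genes lower and 0 higher in B16 (median -0.90), 7 of 12 lower in the CITE-seq library (-0.76) and 10 of 11 in LLC (-1.61), with 0 higher in either. C1qa, a chain of the first complement component, stood at 1496 against 3943 CPM in B16, 2071 against 3013 in the CITE-seq library and 1185 against 2331 in LLC. Among subsets of at least 20 cells, Immature TAM-1 ranked 2 of 6 for C1qa in B16, behind TAM-1 at 5470 CPM. It ranked 4 and 5 of 10 in the CITE-seq and LLC libraries. For Adgre1, Mrc1 and Apoe it also ranked 2 in B16, and 5 to 8 in the LLC libraries. Folr2, a folate receptor of resident macrophages, had ratios of 0.36, 0.21 and 0.06. The mature macrophage list had 8 of 14 lower and 0 higher in B16 (-0.66), 9 of 13 lower and 1 higher in the CITE-seq library (-0.68), and 8 of 11 lower and 0 higher in LLC (-0.84). The cathepsins Ctsd and Ctsb, lysosomal proteases, had ratios of 0.37 to 0.62. The one higher gene was Axl, a receptor for dying cells, at 1.66 times. In the lipid list 9 of 15, 5 of 12 and 3 of 9 were lower and 0 higher. Abca1, the cholesterol exporter, had ratios of 0.41, 0.12 and 0.22.

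Classical monocyte genes were high in the B16 cells against their own reference. There 10 of 13 were higher and 0 lower (median 0.98), while 2 of 12 were higher and 1 lower in the CITE-seq library (-0.18), and 3 of 12 higher and 4 lower in LLC (-0.16). Ccr2, the receptor that brings monocytes out of the bone marrow, stood at 922, 758 and 1033 CPM in the subset, and at 229, 633 and 761 in the other subsets. The level in the subset thus varied by less than 1.5-fold between libraries, and the B16 ratio of 4.02 (3.86 to 4.19) went with a low B16 reference. Plac8 and Ms4a4c, both known from monocytes, were higher in all 3 libraries, at 1.86, 1.68 and 2.88 times and at 1.78, 1.68 and 2.98 times. Ly6c2, the monocyte Ly6C gene, had ratios of 1.98, 0.98 and 2.72. Non-classical monocyte genes were lower than in the pooled other B16 subsets, 7 of 10 with 0 higher, as were 18 of 20 proliferation genes with 0 higher.

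The subset was also set against the subset named Monocytes. The classical monocyte list had medians of -0.94, -0.81 and -0.73 against it in B16, the CITE-seq library and LLC, and the complement list 3.95, 2.26 and 2.89. The class II list had medians of 1.53, 2.23 and 2.62. By these medians the subset lay between Monocytes and the pooled other subsets in complement genes of every library and in classical monocyte genes of B16. Its class II medians were above both references, and its classical monocyte medians in the LLC libraries were below both. Against Immature TAM-2, the summed level of all class II members was 33865 against 6260 CPM in B16, 22810 against 7004 in the CITE-seq library and 19130 against 4383 in LLC. The summed interferon-gamma level was 4350 against 1061, 9120 against 474 and 9237 against 354 CPM, and the summed classical monocyte level 10436 against 17626, 11952 against 17529 and 14766 against 19085. Immature TAM-2 thus had the lower class II and interferon-gamma sums and the higher classical monocyte sum in each library.

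Of the single genes shared by all libraries, the most separated by the weakest interval bound were Ass1, H2-DMb1, H2-Ab1, H2-Aa, Ly6a, Cd74, H2-DMa, Upp1, Samhd1 and H2-Eb1. Ass1, which remakes arginine from citrulline, stood at 200, 257 and 304 CPM, with ratios of 3.12, 3.49 and 5.36. Ly6a, which encodes Sca-1, had ratios of 1.99, 7.02 and 7.99. Samhd1, which breaks down deoxynucleotides, had ratios of 1.85, 3.14 and 3.16, and Upp1, a uridine phosphorylase, of 2.13, 4.45 and 3.01. Among subsets of at least 20 cells, the class II genes named here ranked 1 in each library, but the others did not in B16. There Mono/TAM IFN had 274 CPM of Ass1 and 1229 of Ly6a, against 200 and 850 in the subset. Monocytes had 1103 CPM of Samhd1 against 751, and Upp1 ranked 4 of 6. In the LLC libraries these ranked 1, except Ly6a in LLC, which ranked 2. The lowest against the pooled other subsets were Serpinb6a, Cxcl3, Timp2, Abca1, Hmox1, Hspa1a, Ctsd, Hspa1b, Pf4 and Stab1. For Timp2 in B16 the subset still ranked 2 of 6, behind TAM-1. Hmox1, which breaks down haem, had ratios of 0.46, 0.32 and 0.10. Cxcl3, a neutrophil chemokine, had ratios of 0.17, 0.16 and 0.08. Mono/TAM Hypoxic had the highest Cxcl3, Hspa1a and Hspa1b in each library, with 1488, 1212 and 4352 CPM of Cxcl3. The subset ranked 4 of 6 for Cxcl3 in B16 and 8 of 10 in both LLC libraries. Its B16 ratio was 1.66 against macrophage subsets only. Pf4, a chemokine of platelets and resident-like macrophages, had ratios of 0.43, 0.50 and 0.03. The copies Hspa1a and Hspa1b can share reads.

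In B16, the highest genes beside Ly6i and Ass1 were Ccl24, Mgl2, Ccr2, Il1b, Cyp51, Spint1, Idi1 and Tarm1. Ccl24, an eosinophil chemokine, had a ratio of 10.9, but 1 of 518 cells held 54.9% of its UMIs and the ratio was 4.93 without that cell. Il1b, the inflammatory cytokine, was higher in every library, at 847, 1242 and 2067 CPM, with ratios of 3.59, 1.71 and 3.43, and 1 LLC cell held 32.0% of its UMIs there. Mgl2, a lectin that encodes CD301b, stood at 60.1 against 10.7 CPM in B16 and 131 against 47.0 in the CITE-seq library. Cyp51 and Idi1, enzymes of cholesterol synthesis, had B16 ratios of 3.61 and 3.59, and CITE-seq ratios of 1.11 and 1.48. Their LLC ratios were 3.39 (2.19 to 5.02) and 2.12 (1.13 to 3.63), both below the count minimum. The lowest in B16 were Ccl8, S100a9, Vcam1, S100a8, Cadm1, Rsad2, Serpinb6a, Stmn1, Olfml3 and Mmp13. S100a8 and S100a9, calcium-binding proteins of neutrophils and monocytes, had B16 ratios of 0.06 each. The 22 Immature TAM-2 cells held 2528 of the 3274 S100a8 UMIs and 3134 of the 4101 S100a9 UMIs of the other B16 subsets, and without them the ratios were 0.28 and 0.24. Ccl8, a monocyte chemokine, stood at 70.9 against 1365 CPM in B16, a ratio of 0.05. In the CITE-seq library it went the other way, at 111 against 29.3 CPM. In LLC it had 0 UMIs in the subset against 26.9 CPM, below the count minimum.

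Markers of other cell types were summed in the same way. Summed neutrophil markers stood at 75.3 CPM against 462 in B16, or 172 without Immature TAM-2 in the reference, 345 against 381 in the CITE-seq library and 283 against 494 in LLC. T cell markers stood at 33.9 against 34.4 CPM in B16, 0 against 3.99 in the CITE-seq library and 10.5 against 2.11 in LLC. The LLC T cell level of the subset came from 2 UMIs of Cd3d. Melanoma markers stood at 59.1 against 73.4 CPM in B16. The cDC1 list was higher in the LLC libraries, at 584 against 221 and 488 against 202 CPM, through Irf8, which macrophages also express, while Xcr1, Clec9a and Snx22 had 0 UMIs there. The cDC2 list stood at 97.4 against 33.2 CPM in B16 through Mgl2 and Clec10a, with 2 UMIs of Flt3 and 1 of Zbtb46, and at 146 against 67.7 in the CITE-seq library and 73.4 against 42.8 in LLC, with 0 of either. Of the 518 B16 cells, 8 were named cDC2 in another deposited annotation. Without all cells so named, the B16 cDC2 list stood at 83.4 against 31.6 CPM, and the ratios were 4.70 for Mgl2, 1.63 for Clec10a, 3.08 for Ciita, 2.16 for H2-DMb1, 1.94 for H2-Aa and 1.90 for Cd74. Migratory dendritic cell markers stood at 9.70 against 5.43 CPM in B16, 45.3 against 5.70 in the CITE-seq library and 26.2 against 3.11 in LLC. These migratory levels rested mostly on Il4i1, with 31, 17 and 5 UMIs in the subset. Ccr7, Fscn1, Cacnb3 and Nudt17 had 0 UMIs in its LLC and CITE-seq cells. In B16, Ccr7 stood at 0.571 against 1.95 CPM. The part of other cells in the results was not tested. In summed counts, fewer expressing cells and less RNA per cell cannot be told apart, and shares of cells with a UMI are given above for Ciita and Cxcl9 only.

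Among the other subsets of at least 20 cells, TAM-3 had the highest Ciita in both LLC libraries. Against TAM-3, 361 (8.02%) of 4499 genes were higher and 507 (11.3%) lower in the CITE-seq library, and 266 (10.2%) and 396 (15.2%) of 2604 in LLC. There 3 of 9 class II genes were higher and 1 lower in the CITE-seq library (median 0.48), and 1 of 7 higher and 0 lower in LLC (0.31). H2-Aa had ratios of 1.35 and 1.20 over TAM-3. The interferon-gamma list, summed over all its members in the table, stood at 9120 against 453 CPM in the CITE-seq library and 9237 against 406 in LLC. Cxcl9 stood at 101 times and 135 times its TAM-3 level.

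Mono/TAM IFN had the highest Socs1 and Ly6i among the other subsets of at least 20 cells in each library. Against it, 1822 (24.1%) of 7551 genes were higher and 868 (11.5%) lower in B16, 286 (6.36%) and 617 (13.7%) of 4500 in the CITE-seq library, and 211 (8.04%) and 434 (16.5%) of 2626 in LLC. The median of all genes was 0.20 in B16 in this comparison, so values there are to be read against it. Class II genes were higher in the subset, 8 of 11, 7 of 9 and 6 of 7, with 0, 1 and 0 lower and medians of 0.77, 1.17 and 1.48. Type I genes were lower throughout, 21 of 21, 21 of 21 and 20 of 20 (medians -2.98, -2.12 and -2.25). Interferon-gamma genes were mixed, with 1 of 20 higher and 9 lower in B16 (-0.56), 10 of 18 higher and 1 lower in the CITE-seq library (0.98), and 7 of 15 higher and 2 lower in LLC (0.31). Cxcl9 was higher than in Mono/TAM IFN in all 3 libraries, at 2.41, 15.1 and 20.7 times.

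TAM-1, the largest subset of B16, had fewer monocyte transcripts. Of 10123 genes, 936 (9.25%) were higher in Immature TAM-1 and 1776 (17.5%) lower. All 13 classical monocyte genes were higher (median 4.09). Of 12 complement genes 8 were lower and 1 higher (-1.26), and of 14 mature macrophage genes 10 were lower and 1 higher (-0.87). Class II genes were higher in 9 of 14 (0.69), with Ciita at 2.87 times and H2-Aa at 1.76 times its level in TAM-1. Cxcl9 was higher in TAM-1, at 1388 CPM, than in Immature TAM-1.

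The B16 and LLC cells of the subset were next compared directly. Against the CITE-seq cells, 428 (9.7%) of 4412 genes were higher in B16 and 303 (6.87%) lower, and against the LLC cells 290 (11.3%) of 2562 were higher and 266 (10.4%) lower. With an interval that leaves out 1, these were 226 and 215, and 159 and 213. Class II genes were higher in B16, 5 of 10 and 6 of 8 with 0 lower (medians 0.56 and 0.77). Interferon-gamma genes were lower, 9 of 18 and 8 of 17 with 1 higher in each (-0.56 and -0.56). Ciita did not follow the class II genes against the CITE-seq cells, with a ratio of 0.73 (0.57 to 0.94). Against the LLC cells its ratio was 1.44 (0.89 to 2.48), in the class II direction, on 17 LLC UMIs. Between the CITE-seq and LLC cells themselves, Ciita differed by 1.98 times (1.15 to 3.58).

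The most separated genes higher in B16 were Cd36, Ccl7, Ccl2, Lpl, Hmox1, Ftl1, H2-Aa, Wfdc17, Slamf7 and H2-Eb1. Ccl2, the monocyte attractant that binds Ccr2, stood at 1722 CPM in B16 against 343 and 677. Cd36, a scavenger receptor for lipids, stood at 72.7 CPM in B16, with 1 UMI in the CITE-seq cells and 0 in the LLC cells, at least 4.62-fold higher against a floor of 3 counts over the 25 LLC cells. For 8 of these 10 genes, all but Ccl2 and Hmox1, the other B16 subsets were also above the other subsets of both LLC libraries. H2-Aa there stood at 2834 CPM against 1098 and 693, and Lpl, which frees fatty acids from lipoproteins, at 513 against 23.6 and 11.3. Lower in B16 were Acod1, Cxcl10, Upp1, Cxcl9, Gbp5, Fn1, Sdc4, Malt1, Marcksl1 and Txnip. Acod1, which makes itaconate in activated macrophages, stood at 58.8 CPM in B16 against 232 and 372. Cxcl9 stood at 0.37 times its level in either set of LLC cells, yet in the pooled other subsets it was higher in B16, at 1008 CPM against 29.9 and 12.9. The same turn held for Acod1, at 45.1 CPM in the other B16 subsets against 12.2 and 10.7.

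**Figure D4:**
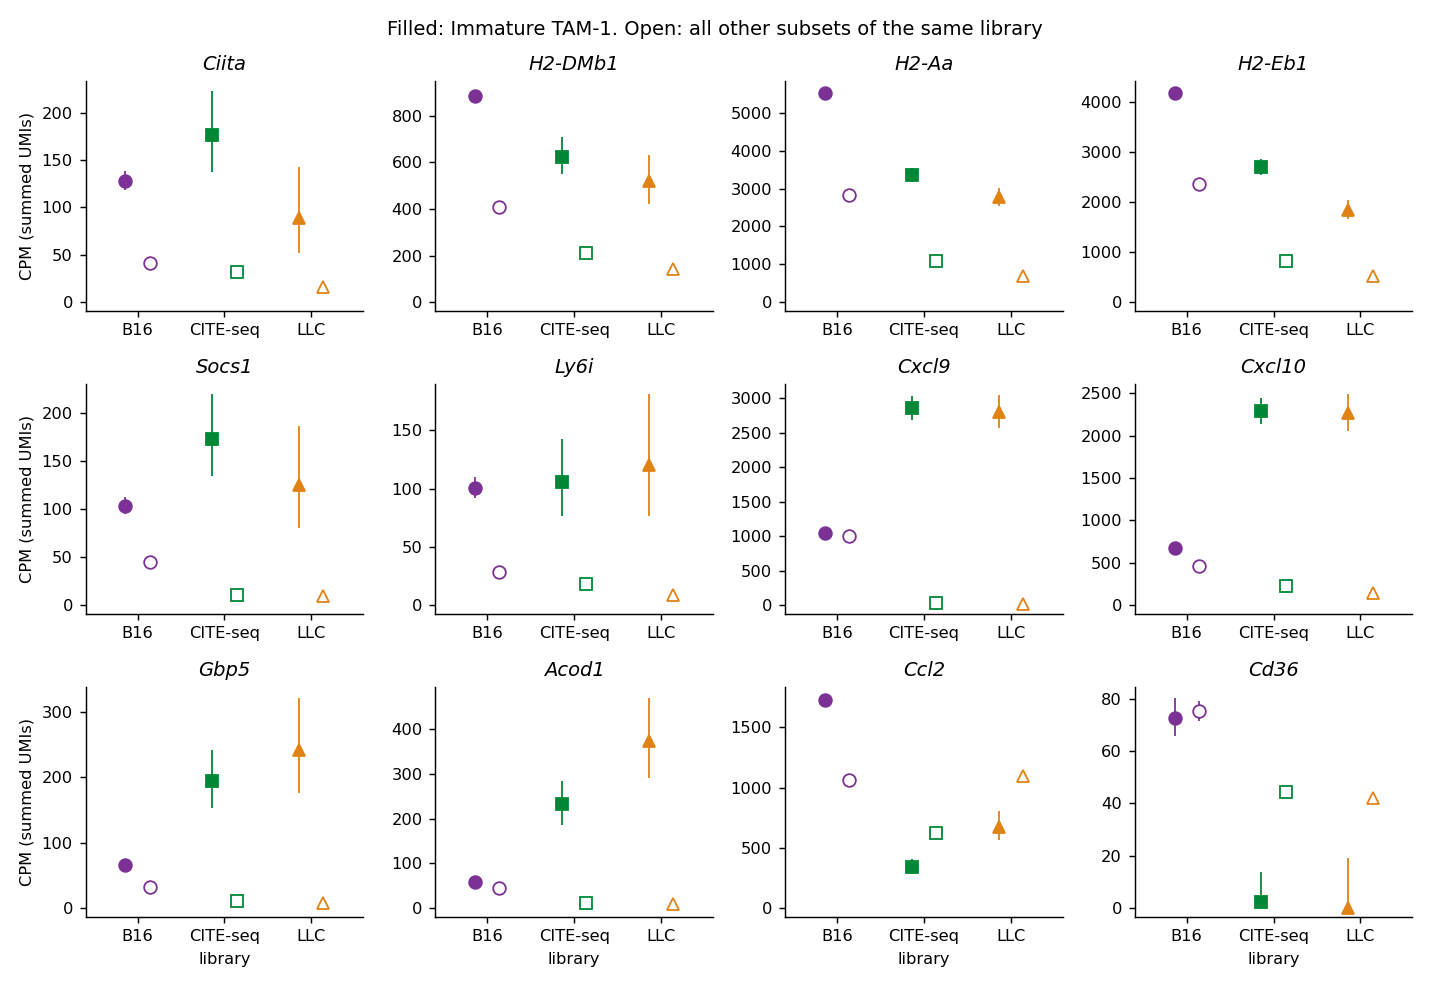
CPM (vertical axes) of 12 genes in Immature TAM-1 (filled) and in all other subsets (open) of each library (horizontal axes), with 95% Poisson bars. Cxcl9, Cxcl10, Gbp5 and Acod1 are lower in the B16 cells of the subset than in its LLC cells, whereas in the other subsets the B16 level is the highest of the 3 libraries.

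Antibody tags of the CITE-seq library gave a protein readout. Of 115 measured tags, 8 (6.96%) were higher at 1.5-fold in the 76 cells than in the 10055 others, and 43 (37.4%) lower. The tag for class II protein, IA-IE, had the largest ratio, 2.99 (2.93 to 3.05), and averaged 124 tag UMIs per cell against 43.1. Its median was 30 (quartiles 5 and 144.5) against 3 (1 and 27), so the cells spread widely and overlapped with the rest. The mean of the 9 isotype control tags, which measure unspecific binding, was 0.114 UMIs per cell against 0.166, with single isotype tags between 0.0132 and 0.513 in the subset, and all tags together 677 against 700. By subset, IA-IE averaged 83.9 in Immature TAM-3, 64.6 in TAM-3, 53.2 in Mono/TAM IFN, 50.5 in TAM-4 and 9.19 in Monocytes. As a share of tag UMIs it was 18.4% in Immature TAM-1, 10.9% in TAM-3 and 7.30% in Immature TAM-3.

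Further tags that were higher than in the pooled other subsets were CD8b (2.61), CD69 (2.21), Ly6A-Ly6E (2.21), CD274 (2.01), CD301b (1.82), CD54 (1.79), the adhesion molecule ICAM-1, and JAML (1.64). These ratios do not show that a tag was highest in Immature TAM-1, since a single other subset can lie at or above its level. The CD8b tag counted 29 UMIs, 13 of them in 1 cell, and at 0.382 UMIs per cell it lay within the range of the isotype tags. CD69 averaged 0.579 UMIs per cell in the subset, just above its highest isotype tag at 0.513. In the other cells CD69 averaged 0.271, within their isotype range, which reached 0.892. CD11c, the integrin Itgax, had a ratio of 1.47 (1.37 to 1.57), under the call. Among the lower tags were FRB, the folate receptor (0.23), F4-80, the macrophage antigen Adgre1 (0.29), CD41 (0.34), CD150 (0.34), VSIG4 (0.34) and CD206, the mannose receptor (0.39). In the subset F4-80 (0.224 UMIs per cell), VSIG4 (0.368) and CD150 (0.487) lay within the range of the isotype tags. Tim4 (0.03) and TCRgd (0.10) were also low, but 1 other cell held 92.8% and 81.7% of their UMIs in the rest. Against Monocytes alone the order turned for FRB (3.07) and CD206 (2.78), while Ly6C was at 0.30. These ratios compare a tag's share of all tag UMIs, and Monocytes had a median of 263 tag UMIs per cell against 535. Without scaling, FRB averaged 1.74 UMIs per cell against 0.284, CD206 1 against 0.181 and Ly6C 21 against 34.8.

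Tags were set beside the RNA of the same cells. For IA-IE and H2-Aa the ratios were 2.99 and 3.06, for FRB and Folr2 0.23 and 0.21, and for Ly6C and Ly6c2 1.15 and 0.98. The tag ratio was nearer to 1 than the RNA ratio for CD274 (2.01 and 4.66), CD54 and Icam1 (1.79 and 4.13) and Ly6A-Ly6E and Ly6a (2.21 and 7.02). It was farther from 1 for CD206 and Mrc1 (0.39 and 0.62), a tag that averaged 1 UMI per cell in the subset. The cells are the same in both readouts, so the pairs do not replicate each other.

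**Figure D5:**
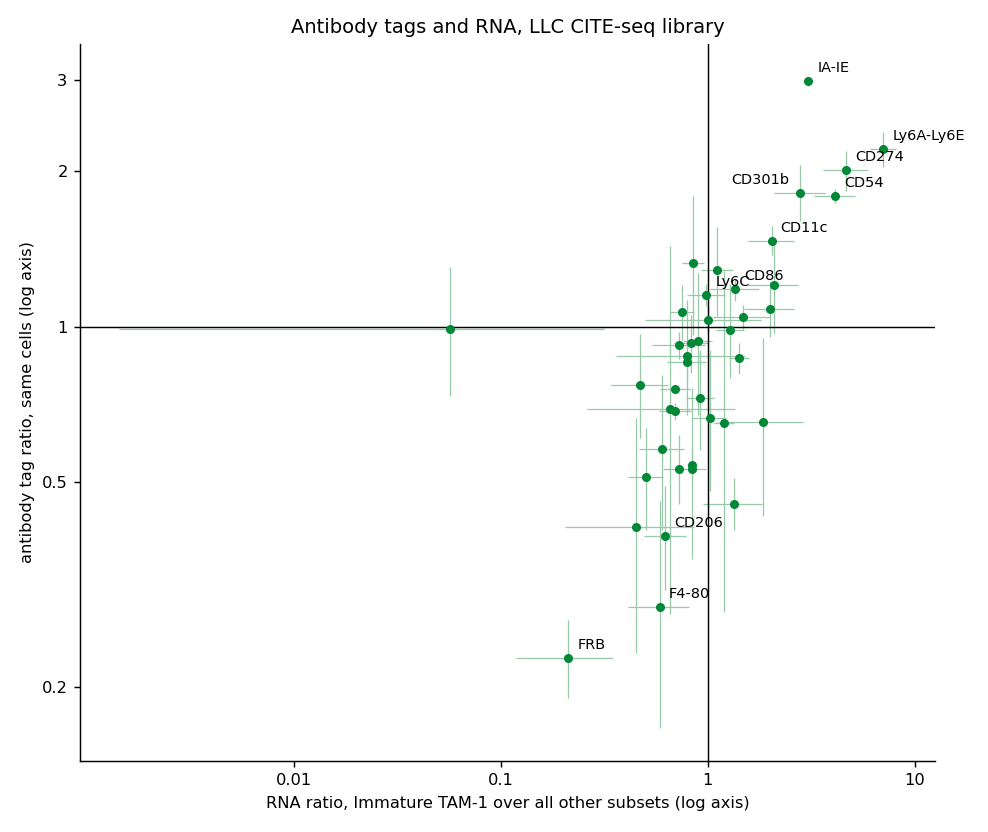
Antibody tag ratio (vertical, log axis) against RNA ratio (horizontal, log axis) of Immature TAM-1 over all other subsets for 41 tag and gene pairs measured in both, CITE-seq library, with 95% bars. IA-IE sits at the top (2.99 and 3.06) and FRB at the bottom (0.23 and 0.21).

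Within the subset, class II and interferon-gamma levels varied from cell to cell. The class II list took a median of 3.00% of a cell's UMIs in B16 (quartiles 1.27 and 4.79), 2.07% in the CITE-seq library (0.819 and 3.49) and 1.15% in LLC (0.350 and 3.44), against 1.03%, 0.375% and 0.277% in other cells. Cells above the 90th percentile of the others were 29.5%, 36.8% and 44.0% for class II. For interferon-gamma genes they were 20.3% in B16, 88.2% in the CITE-seq library and 84.0% in LLC.

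Other deposited annotations named the same cells in other ways. In the table that joined whole tumours, 401 of the 518 cells from B16 (77.4%) and 19 of the 25 from LLC (76.0%) were called Imm TAM-3, so names do not carry over between tables. In the annotation of B16 alone, 378 of 518 (73.0%) were Immature Mac and 103 (19.9%) Mono. The Mono cells had 833 CPM of Ly6c2 against 309, 7741 of Plac8 against 1826 and 124 of C1qa against 1658. They had less class II, with H2-Aa at 3228 against 6002 CPM, but more Socs1 (169 against 90.5), Ly6i (171 against 87.3), Cxcl10 (1588 against 537) and Gbp2 (1091 against 437). Ciita was at 149 and 127 CPM. The B16 cells of the subset thus joined a monocyte-named and a macrophage-named group that differed in class II RNA and in interferon-gamma genes.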

How the data were processed

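Single-cell RNA was measured in 1 B16, 1 LLC CITE-seq and 1 LLC library, and antibody tags in the CITE-seq library. The authors deposited whole-number UMI counts per gene or tag and cell, made with Cell Ranger on mm10 per the submitters' processing notes, with versions not given in the sources used here, and annotation tables that name each cell. How cells were clustered is likewise not given there. Cells were taken by name from the monocyte and macrophage table. UMIs were summed per subset and library and compared as CPM ratios with 95% exact conditional binomial intervals. A gene was measured at an expected count of at least 10, and called at 1.5-fold. A side with 0 UMIs was set to a floor of 3 counts. No test was made and no p-value is given, since each tumour comparison had 1 library a side and the subset was named from these cells. The cells of the subset held 5258386, 396922 and 190640 UMIs in the B16, CITE-seq and LLC libraries, which limits low genes in the LLC libraries most.

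Named genes were the 4 markers, and 10 per direction for B16, for all 3 libraries together and between tumours, and 8 tags per direction, ranked by the interval bound nearest to 1 among measured genes of at least 50 CPM on the higher side. Other genes are named as members of lists. The members and lists were chosen with earlier results of these data known. Scrublet's automatic call marked 0 of 6870 B16 cells and 1 of 13021 LLC cells and so did not work. Doublets were therefore not removed and only their scores are given. The scripts used Python 3.11.15, numpy 2.4.6, scipy 1.17.1, pandas 2.3.3, scanpy 1.11.5 and matplotlib 3.10.9, and were tested on simulated data. In simulated Poisson counts the 1.5-fold rule called 3.04%, 8.14% and 9.05% of unchanged genes higher or lower in B16, the CITE-seq library and LLC. Counts of called genes thus include some from counting error, most in the LLC libraries. Alternatives were other count minimums, a 2-fold call, thinned cells, per-cell means, equally weighted subsets and macrophage subsets only as reference. Calls with an interval that leaves out 1, ratios without the fullest cell, comparisons with TAM-1 and Monocytes, and B16 values without Immature TAM-2 or without cells named cDC2 were chosen after seeing the data. The value of 1 gene is not reported here.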

Additional observations from a re-analysis of the deposited data

Results flagged for a closer look

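For 4 gene lists the median log2 ratio of Immature TAM-1 over all other subsets had one sign in B16 and the other in both LLC libraries, and the difference between libraries was not tested. The reference subsets differ between the tumours, with TAM-1 in 941 of 1779 other B16 cells. Type I interferon genes had medians of -0.43 in B16, 0.26 in the CITE-seq library and 1.0 in LLC. Classical monocyte genes had medians of 0.98, -0.18 and -0.16. Suppressive macrophage genes had medians of 0.23, -0.49 and -0.92, and of these Arg1, which consumes arginine, stood at 601 against 513 CPM, 693 against 1207 and 766 against 2134. Dissociation stress genes had medians of 0.22, -0.23 and -0.24, and Fos, an immediate early gene, had ratios of 1.47, 0.56 and 0.96.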

How the results depend on the processing

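No paired analysis was possible between tumours because each library was its own group, and over the 3 libraries the subset and its neighbours were not tested, since the naming of the cells chose them. Counts of genes changed with the settings. Weighting the other subsets equally, macrophage subsets as the only reference and a 2-fold call gave 1049, 886 and 146 higher genes in B16, and lower genes were 733 at 2-fold and 991 with thinned cells. With minimums of 5 and 20, a 2-fold call and thinned cells, the CITE-seq library had 534, 138, 107 and 161 higher genes and 1211, 282, 243 and 277 lower ones, and LLC had 562, 102, 84 and 71 higher and 876, 173, 182 and 114 lower. Intervals that leave out 1 left 374 and 236 lower genes. Minimums of 5 and 20 gave 812 and 195 genes higher in B16 over the CITE-seq cells and 586 and 115 lower, and 639 and 122 higher and 578 and 104 lower over the LLC cells. Intervals that leave out 1 left 226 and 159 higher. The class II median of B16 was 1.38 with equal weights and 0.71 against macrophage subsets. The interferon-gamma median was 0.67 with per-cell means and 0.73 with thinned cells in B16, 2.0 at a minimum of 20 in the CITE-seq library, and 1.66 with equal weights, 1.52 against macrophage subsets and 2.72 at a minimum of 20 in LLC, where thinned cells gave no value. Among macrophage subsets only, the shares were 33.9% in B16 and 0.966% in the CITE-seq library.

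Of 665 alternative values for 86 gene results, 497 stayed within the interval of the reported value, 166 moved and 2 changed direction. Upp1 of B16 was 0.792 with equal weights, and Cxcl3 of B16 was 1.66 against macrophage subsets. Between tumours 118 of 144 stayed, 23 moved and 3 changed direction. Cd36 in B16 over LLC was 0.958 with thinned cells, where the LLC side was at the floor, and Ly6i was 1.07 with per-cell means and 1.38 with thinned cells. Without Immature TAM-2 in the B16 reference 3 neutrophil values moved, and without cells named cDC2 5 of 7 values stayed and those of Mgl2 and Cd74 moved (values given above). For tags 43 of 62 stayed and 19 moved. The causes were not tested. Depth limits the 25 LLC cells most.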

Other observations

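In B16, proliferation genes were lower in the subset than in the pooled others, 18 of 20 measured against 14.8% of all measured genes. Mki67, a marker of cycling cells, had a ratio of 0.11 (0.06 to 0.19), and Stmn1, a tubulin-binding protein, of 0.12 (0.10 to 0.15). In the CITE-seq library 6 of 20 such genes were measured, 1 higher and 0 lower. Hypoxia and glycolysis genes were lower in 6 of 21, 3 of 20 and 7 of 19 measured cases, with 0, 1 and 0 higher, beside 14.8%, 13.9% and 15.7% of all measured genes lower. Vegfa, the vessel growth factor, had ratios of 0.55, 0.55 and 0.32.

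In the chemokine list, 5 of 19 measured genes were higher and 8 lower in B16 (median log2 ratio 0.01), 5 of 17 and 8 in the CITE-seq library (-0.56), and 2 of 14 and 7 in LLC (-0.51). Of all measured genes 4.81%, 6.77% and 9.17% were higher and 14.8%, 13.9% and 15.7% lower. Ccl5, which attracts T cells, had ratios of 1.71, 3.80 and 15.2, the last below the count minimum. Ccl6 had ratios of 2.09, 0.56 and 0.80. Among C-type lectins, the Dectin-2 gene Clec4n stood at 394 against 162 CPM in B16, and had ratios of 1.37 and 1.29 in the LLC libraries. Clec5a had ratios of 2.85, 1.31 and 1.12.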
